A study of Mus musculus with 36 samples.

Results

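Genes whose name starts with Nduf were followed through the gastrocnemius muscle of sedentary and running mice. They were chosen by that name, a protein-coding label in the count table and a symbol without the pseudogene ending "-ps", which gave 50 genes of 46893 features, or of 22186 protein-coding features. By known role, 37 of the 50 encode subunits of respiratory complex I, 8 encode assembly factors (Ndufaf genes), 3 are listed as copies of subunit genes (Ndufb4b, Ndufb4c and Ndufs6b), and 2 carry the name without being complex I subunits (Ndufa4, whose protein sits in complex IV, and Ndufa4l2, its hypoxia-responsive relative). No measured value entered the choice.

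The study asked how running different daily distances changes muscle transcripts in mice eating a high-fat diet. All 36 mice were male wild-type C57BL/6 animals aged 3 to 4 weeks at the start and kept for 12 weeks. The 6 groups held 6 mice each. NFD-C mice ate an AIN93G diet with 16% of energy from fat and stayed sedentary. HFD-C mice ate a diet with 45% of energy from fat and stayed sedentary. The other 4 groups ate that same high-fat diet and ran on wheels: HFD-25% mice 2.1 km/day, HFD-50% mice 4.2 km/day, HFD-75% mice 6.3 km/day and HFD-U mice, whose wheel was not restricted, 8.3 km/day. Running with the normal-fat diet was not among the groups, and whole muscle was sampled, so a lower share of a fibre type and less RNA per fibre cannot be told apart.

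Complex I takes electrons from NADH and passes them to ubiquinone, and pumps protons across the inner mitochondrial membrane as it does so. Its N module (Ndufv1, Ndufv2, Ndufs1) oxidises NADH, its Q module (with Ndufs3, Ndufs7 and Ndufs8) reduces ubiquinone, its membrane arm rests on 7 subunits made inside the mitochondrion, and the accessory subunits surround this core. Assembly factors help build the complex and are absent from the finished enzyme. In muscle, oxidative fibres hold more of it than fast glycolytic ones.

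Sequence near the start sites was examined because nuclear respiratory genes are known targets of the factors YY1 and NRF1. RefSeq promoter windows (GRCm38.p6, 250 bases before to 50 after each start) gave 44 records for 42 of the 50 genes. The YY1 word AAGATGGC, searched on both strands, was in 8 of the 44 records (18.2%) and in 2.75% of all 32851 records. All 8 matches lay on the gene's own strand, 11 to 39 bases after the start. They are printed below 5′ to 3′ on that strand with the word in capitals. The word contains the letters ATG, and whether these matches are start codons of the genes was not tested.
Ndufa3, chr7:3617384-3617413, plus strand: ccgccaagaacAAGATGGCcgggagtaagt
Ndufa9, chr6:126849097-126849126, minus strand: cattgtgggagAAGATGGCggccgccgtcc
Ndufaf8, chr11:120098933-120098962, plus strand: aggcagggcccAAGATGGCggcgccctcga
Ndufb8, chr19:44555393-44555415, minus strand: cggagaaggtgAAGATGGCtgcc
Ndufc1, chr3:51408915-51408944, minus strand: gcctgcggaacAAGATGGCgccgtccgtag
Ndufs4, chr13:114388045-114388070, minus strand: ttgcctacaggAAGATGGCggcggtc
Ndufs6, chr13:73328433-73328460, minus strand: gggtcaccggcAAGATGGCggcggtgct
Ndufs7, chr10:80249462-80249491, plus strand: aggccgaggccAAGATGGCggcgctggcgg

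The palindromic core CGCATGCG of the NRF1 site was in 4 of the 44 records (9.09%) and in 1.87% of all records. The 4 windows belonged to the accessory subunits Ndufa8 and Ndufa11 and to the assembly factors Ndufaf4 and Ndufaf5, and are printed in the same way. The core lay at positions from -112 (Ndufaf4) to 18 (Ndufaf5) relative to the start.
Ndufa8, chr2:36049329-36049358, minus strand: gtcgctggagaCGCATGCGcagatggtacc
Ndufa11, chr17:56717692-56717721, plus strand: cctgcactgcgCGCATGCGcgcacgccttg
Ndufaf4, chr4:24897960-24897989, plus strand: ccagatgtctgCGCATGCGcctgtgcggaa
Ndufaf5, chr2:140170652-140170681, plus strand: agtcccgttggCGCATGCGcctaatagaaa

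The ETS-type word CCGGAAG, searched like the others on both strands, was in 13.6% of the records of these genes and 8.86% of all records, and the ERR-type word AAGGTCA in 6.82% and 4.72%. These matches are descriptions of letters in a window, and binding was not measured.

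Reads were deposited as counts per gene, between 13060090 and 27981702 per mouse. CPM below is the count relative to library size after TMM scaling over the 36 libraries, and FPKM is that value per kilobase of gene model, used wherever levels of different genes are compared. The libraries divided by the share of counts on ribosomal-RNA-linked features: it was 2.01 to 3.80% in all 6 NFD-C mice and in 4 HFD-C mice (replicates 1 to 4), and 0.404 to 1.02% in the remaining 26 mice. No runner had a high share, so each comparison with a sedentary group was also made within libraries of one kind. The muscle label was met in every mouse: 7 skeletal muscle markers summed to 78093 to 143685 CPM, while 6 adipocyte markers summed to 1.09 to 89.7 CPM.

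Complex I subunit transcripts were abundant and of similar level per length. The 37 subunits had a median of 206 FPKM and lay within a 9.17-fold range, from 71.4 for Ndufab1 (the mitochondrial acyl carrier protein) to 655 for Ndufb9 (a membrane-arm subunit), with Ndufa3 next at 455. Class medians were 253 FPKM for the 13 accessory subunits of the B and C names, 205 for the 3 N-module core subunits, 167 for the 13 of the A names and 159 for the 4 of the S and V names. The gene with the highest level was not a complex I subunit: Ndufa4 had 1191 FPKM.

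The core subunits followed the same pattern. The Q module gave mean FPKM of 307 for Ndufs7, 208 for Ndufs3 and 161 for Ndufs8. The N module gave 236 for Ndufv2, 205 for Ndufv1 and 80.0 for Ndufs1, so the iron-sulfur subunit Ndufs1 had the lowest level of these core transcripts. Assembly factors were far lower, with a median of 11.3 FPKM, and the median subunit stood 18.1-fold above the median assembly factor. Ndufaf8 was highest of them at 42.3 FPKM and Ndufaf6 lowest at 4.33. The subunit copies Ndufb4c, Ndufb4b and Ndufs6b had 21.9, 4.44 and 3.20 FPKM, and Ndufa4l2 had 4.69.

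**Figure D1:**
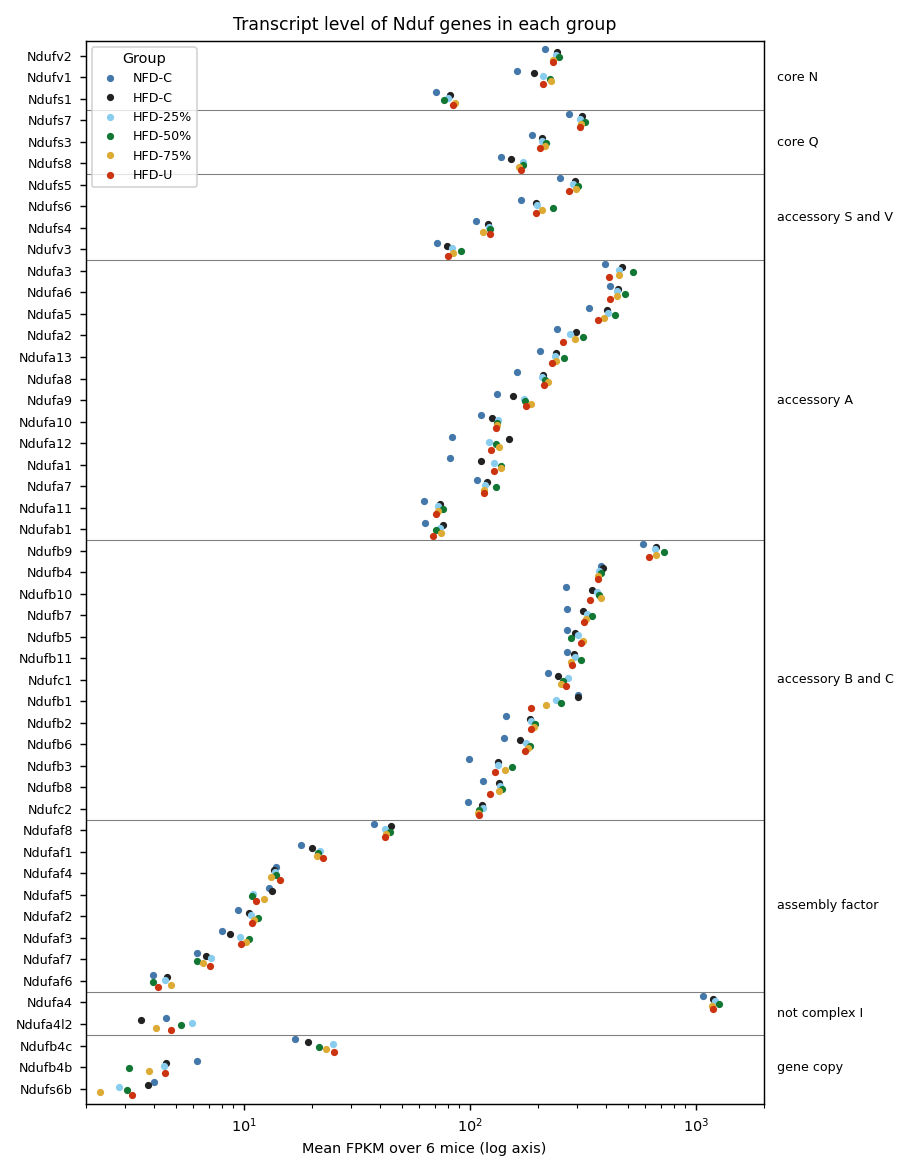
Mean FPKM over 6 mice (log axis) of the genes, ordered by class, with a point for each group. Subunits lie around their median of 206 FPKM, assembly factors near 11.3 FPKM, Ndufa4 is highest at 1191 FPKM over all mice, and the 6 points of most genes nearly coincide.

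Group means of the subunits stayed close together. Over the 37 subunits the median distance between the highest and the lowest group mean was 0.294 on the log2 scale, about the size of the median standard deviation between mice of 1 group, 0.289. NFD-C held the lowest group mean for 34 subunits and HFD-U for 3. The highest mean was in HFD-50% for 23 subunits, in HFD-75% for 7, in HFD-C for 4, in HFD-25% for 3, and HFD-U had it for none. How often each group ranked lowest or highest over all genes was not computed. Subunits varied together between mice of a group (median r of 0.886), so these are not counts of independent genes. All 6 NFD-C libraries had the high ribosomal-RNA-linked share, whose part in these ranks was not tested. The CPM of all 50 genes summed to 7771 ± 621 (SD, n = 6) in NFD-C, 8939 ± 1944 in HFD-C, 8974 ± 1095 in the 25% runners, 9394 ± 1863 in the 50%, 9104 ± 1051 in the 75% and 8773 ± 1637 in the unrestricted ones. The ranges of all 6 groups overlapped.

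Running on the high-fat diet was compared with HFD-C at each distance. With edgeR's quasi-likelihood test and Benjamini-Hochberg adjustment over all genes, none of the 50 genes passed an adjusted p of 0.05 at any distance. Before adjustment, p was 0.05 or below for 1 of 50 in HFD-25% (Ndufb1, lower), against 6.98% of all 12202 genes tested there. In HFD-50% that held for 0 of 50 and for 10.7% of 12116 genes. In HFD-75% it held for 3 of 50 (Ndufa9 higher, Ndufb1 and Ndufs6b lower) and for 5.47% of 12113 genes. In HFD-U it held for 1 of 50 (Ndufb1, lower) and for 5.46% of 12023 genes. The adjusted threshold was passed by 0.0082% of all genes in HFD-25% and by 0% at each longer distance. Groups that do not overlap were found for none of the 50 genes, and for 0.369% (HFD-25%), 0.801% (HFD-50%), 0.264% (HFD-75%) and 0.308% (HFD-U) of all genes. The 4 comparisons share the HFD-C mice.

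In HFD-50%, the group in which most subunits had their highest mean, 30 of 37 subunits had a log2 fold change above 0 with a median of 0.08, where 51.8% of all genes were above 0 and their median was 0.01. The accessory A subunits had a median of 0.12. Assembly factors had a median of 0.01, and 4 of 8 were above 0. Nuclear subunits of complexes II to V had a median of 0.08, and 36 of 44 were above 0. Subunits varied together between mice, so counts above 0 are not counts of independent genes. The counts of HFD-50% against HFD-C and against HFD-U come from the same group means that ranked it highest. They add no separate support to that rank. At the other distances subunits divided about evenly: 20 of 37 were above 0 in HFD-25% (47.8% of all genes), 21 in HFD-75% (49.8%), and 16 among unrestricted runners (48.8%), with medians of 0.01, 0.02 and -0.04. Against HFD-U, HFD-50% had 33 of 37 subunits above 0 with a median of 0.10, where 53.1% of all genes were above 0, and 3 of 8 assembly factors. Of the complex II to V subunits, 39 of 44 were above 0 there, with a median of 0.12. In that comparison 1 gene (Ndufb1, higher) of the 49 tested reached 0.05 before adjustment in edgeR and none after it, against 12.4% and 0.00844% of all genes, and groups without overlap were found for none of them and for 0.878% of all genes. The summed slow-fibre markers (6 genes, Myh7 among them) ran from 448 to 3262 CPM in HFD-50%, from 99.7 to 1928 in HFD-C and from 91.8 to 1564 in HFD-U, and their part in these differences was not tested.

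These directions changed with the libraries used. With only the 2 HFD-C mice of low ribosomal-RNA-linked share (replicates 5 and 6) as controls, the median log2 fold change of the 50 genes, in order of distance, was -0.21, -0.16, -0.24 and -0.28. HFD-C replicate 6 had the highest summed CPM of the 50 genes of all mice, 12375, and without it the medians, in order of distance, were 0.12, 0.20, 0.12 and 0.10, with 4, 3, 7 and 3 genes at 0.05 or below before adjustment in edgeR, against 6.98%, 10.4%, 6.64% and 6.3% of all genes. The part of the library split and of this mouse in the control group in these differences was not tested. Leaving out other mice gave lower medians, down to -0.04 (without HFD-C replicate 1), -0.0051 (without HFD-50% replicate 6), -0.03 (without HFD-75% replicate 4) and -0.13 (without HFD-U replicate 4) by rising distance. The comparison of HFD-50% with HFD-U uses only libraries of low share, and there the median of the 49 genes was 0.0017 without HFD-50% replicate 6, 0.167 without HFD-U replicate 4 and -0.01 with the short-to-long gene index, the difference in level of short and long genes in a library, as a covariate.

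**Figure D2:**
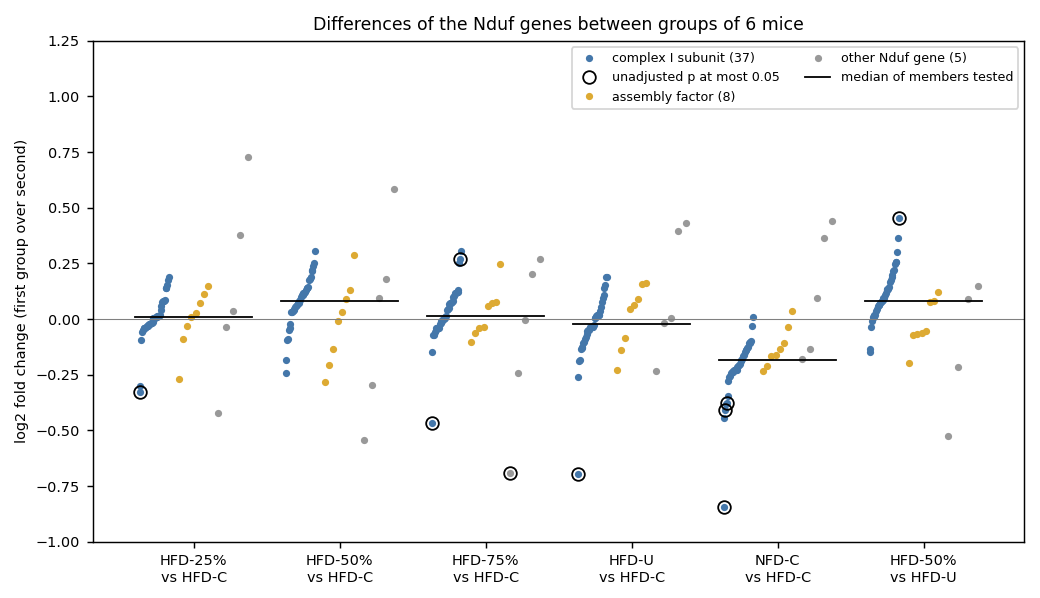
Log2 fold change of each gene in each comparison (y axis), with subunits, assembly factors and the other 5 genes side by side, a line at the median of all members tested and rings around genes at 0.05 or below before adjustment. The median is 0.08 in HFD-50% and -0.18 in NFD-C against HFD-C, where 36 of 37 subunits lie below 0.

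Ndufb1, a small accessory subunit of the membrane arm (chr12:101934355-101941997, minus strand, GRCm39, gene model of 339 bases), had the smallest p of the 50 genes in the comparison of HFD-U with HFD-C. Its lowest, median and highest CPM were 84.0, 99.3 and 134 in HFD-C and 48.7, 60.7 and 85.5 in HFD-U. All 6 HFD-U mice lay below the HFD-C median, and the 2 groups overlapped at their edges. The log2 fold change was -0.70 (SE 0.15, 95% interval -1.03 to -0.37 from the residual degrees of freedom alone), with an unadjusted p of 0.00025 and an adjusted p of 0.254 in edgeR's quasi-likelihood test. It did not pass the threshold there. Between these 2 groups mice with the same number deviated together in all 6 pairs (r of 0.122 to 0.515), and with the number as a block the change was -0.70 with an adjusted p of 0.0234 in edgeR, which passes. DESeq2 on the same genes gave an adjusted p of 0.00761, and over the 10 alternative settings the adjusted p in edgeR or DESeq2 ran from 0.00761 to 0.606.

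At the shorter distances the level of Ndufb1 lay between those groups. HFD-25% mice had 59.4, 78.6 and 104 CPM (lowest, median, highest), HFD-50% mice 52.8, 79.8 and 131, and HFD-75% mice 36.2, 74.3 and 112. All 3 groups overlapped with HFD-C and with HFD-U. The log2 fold changes against HFD-C were -0.33 (SE 0.15), -0.24 (SE 0.20) and -0.47 (SE 0.22) by rising distance, with edgeR adjusted p of 0.70, 0.704 and 0.911. HFD-50% stood 0.45 (SE 0.20, edgeR adjusted p = 0.373) above HFD-U. Sedentary NFD-C mice had 72.1, 106 and 127 CPM, a log2 difference from HFD-C of 0.01 (SE 0.15).

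Ndufb1 was also the member with the smallest p in the tests over several groups. Across the 30 high-fat mice, a linear and a quadratic term of distance gave an unadjusted p of 0.00805 and an edgeR adjusted p of 0.207. It was the only 1 of the 49 genes tested at 0.05 or below before adjustment, where 12.2% of 12006 genes were, and none passed the adjusted threshold, which 0.683% did. The adjusted p of Ndufb1 ran from 0.0374 to 0.429 over the alternative settings in edgeR or DESeq2, and with the ribosomal-RNA-linked share as a covariate its unadjusted p was 0.0735. Ndufa9 and Ndufaf3 followed with unadjusted p of 0.187 and 0.188.

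Ndufb1 has a very short transcript, and other short genes were examined in the same comparisons. In HFD-U against HFD-C the 87 tested genes under 500 bases had a median log2 fold change of -0.20, and in HFD-50% against HFD-U the 84 such genes had 0.31. In HFD-50%, where Ndufb1 stood at -0.24, the median of genes under 500 bases was 0.055, and in HFD-75%, where it stood at -0.47, that median was -0.09. It was -0.13 in HFD-25% and -0.06 in NFD-C. Within the HFD-C libraries of low ribosomal-RNA-linked share the HFD-U change of Ndufb1 was -0.71, and with a short-to-long gene index of each library as a covariate it was -0.65 (edgeR adjusted p = 0.0785). What part transcript length has in it beyond that was not tested.

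**Figure D3:**
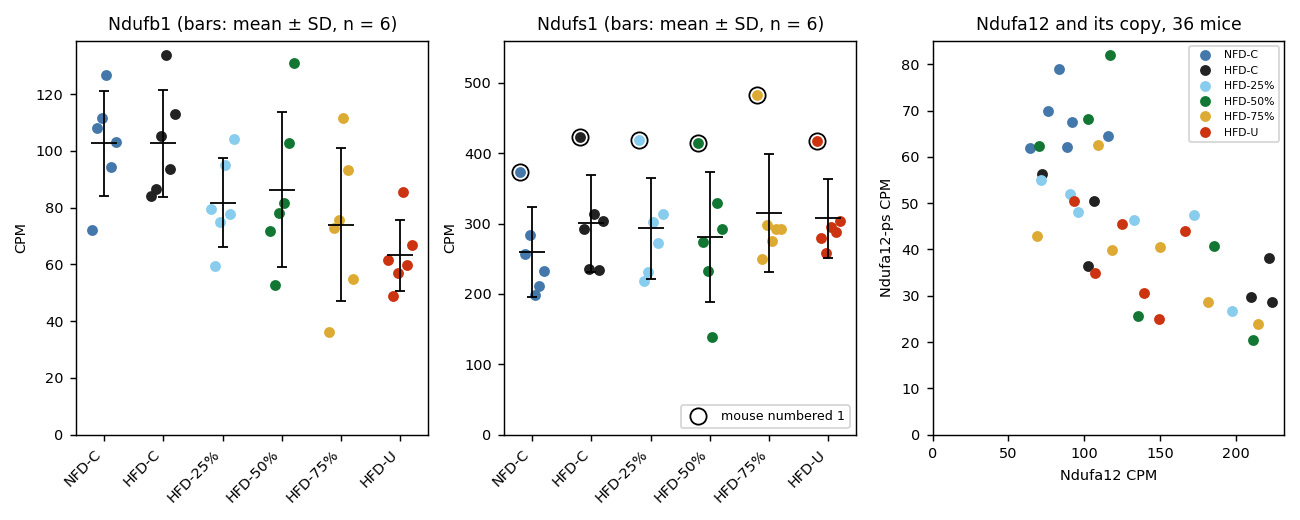
CPM of Ndufb1 and Ndufs1 in each mouse by group, with bars for mean ± SD (n = 6), and CPM of Ndufa12-ps against that of Ndufa12 in the 36 mice. Ndufb1 is between 48.7 and 85.5 CPM in HFD-U and between 84.0 and 134 CPM in HFD-C, the highest Ndufs1 point of every group is the ringed mouse numbered 1, and the NFD-C mice lie at 62.0 to 78.9 CPM of the copy.

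The remaining genes with the smallest p values in the running comparisons had small or uncertain differences. Ndufa9, an accessory subunit at the joint of the 2 arms, had 164, 202 and 267 CPM (lowest, median, highest) in HFD-C and 206, 243 and 293 in HFD-75%. All 6 HFD-75% mice lay above the HFD-C median while the groups overlapped, and the log2 fold change was 0.27 (SE 0.12, edgeR adjusted p = 0.901), or 0.14 within libraries of low ribosomal-RNA-linked share. The copy Ndufs6b had a mean of 1.80 ± 0.69 CPM (SD, n = 6) in HFD-C and 1.10 ± 0.29 in HFD-75%, a log2 fold change of -0.69 (SE 0.31, edgeR adjusted p = 0.892). With a mean of 26.0 reads per mouse, this gene was under the minimum count in the fit of HFD-50% with HFD-U and in that of the 30 high-fat mice. Ndufa4l2 had 1.17 to 6.29 CPM in HFD-C and 4.12 to 12.0 in HFD-25%, a log2 fold change of 0.73 (SE 0.34, edgeR adjusted p = 0.718).

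Among the assembly factors, Ndufaf5, a hydroxylase that acts on Ndufs7, had a mean of 39.9 CPM in HFD-C and, in the runners, by rising distance, 33.0, 32.7, 36.99 and 34.0 CPM. Its log2 differences were -0.27 (SE 0.15), -0.28 (SE 0.16), -0.10 (SE 0.18) and -0.23 (SE 0.16), none of which passed the test. Ndufaf3 had 12.5 ± 2.67 CPM (SD, n = 6) in HFD-C and 15.2 ± 2.64 in HFD-50%, a log2 difference of 0.29 (SE 0.17). Ndufaf7, a methyltransferase, was 0.20 lower on the log2 scale in HFD-50% than in HFD-U, at 14.5 against 16.6 CPM, with an unadjusted p of 0.103 in edgeR.

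The copies need care because reads may fit more than 1 gene. In local alignments of the GENCODE M21 transcripts, Ndufb4c was identical to Ndufb4 at 390 of 390 bases and Ndufs6b to Ndufs6 at 96.6% of 348. Their counts are therefore uncertain. Ndufb4b had 1.47 CPM in HFD-50% and 2.15 in HFD-C, a log2 difference of -0.54 (SE 0.26), and Ndufb4c had 12.2 CPM in HFD-U and 9.36 in HFD-C, a difference of 0.39 (SE 0.25), and neither passed the test in edgeR.

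Diet without running was compared between NFD-C and HFD-C. None of the 50 genes passed the adjusted threshold, nor did any of the 12247 genes tested (0%). Before adjustment, p in edgeR was 0.05 or below for 3 genes (Ndufa12, Ndufb3 and Ndufa8), all lower in NFD-C, and for 4.12% of all genes. None had groups without overlap, against 0.237% of all genes. The shift was small. A log2 fold change below 0 was found for 36 of 37 subunits, with Ndufb1 the exception, and their median was -0.21. Of all genes, 50.1% were above 0, with a median of 0.00. Assembly factors had a median of -0.15 with 7 of 8 below 0, and subunits of complexes II to V a median of -0.22 with 43 of 44 below 0. The subunits varied together between mice of a group (median r of 0.886), so these are not counts of independent genes. Summarised by mouse, the subunit median lay at -0.19 ± 0.14 (SD, n = 6) in NFD-C and -0.01 ± 0.30 in HFD-C, relative to the HFD-C mean.

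That shift depended on which HFD-C libraries were used. All NFD-C libraries had the high ribosomal-RNA-linked share, and against the 4 HFD-C mice that shared it the median over the 50 genes was -0.04, with 17 above 0. With the share as a covariate the median was -0.01, with 23 above 0 and no gene at 0.05 or below before adjustment. Without HFD-C replicate 6 the median was -0.08, and without HFD-C replicate 1 the count at 0.05 or below before adjustment was 8. The share of all genes in that last fit is not given, so the count is not read as a result about the 50 genes. The mean level of Myh4, the fast 2B myosin, was 53714 CPM in NFD-C and 45569 in HFD-C, the summed slow-fibre markers 343 (8.60 to 1438) and 946 (99.7 to 1928) CPM, and mitochondrial-DNA features took 13.5% and 16.04% of counts. Their part in the difference was not tested.

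Ndufa12, an accessory subunit beside the N and Q modules (chr10:94034897-94057302, GRCm39), had the smallest p of the 50 genes in that comparison. It had 64.5, 86.0 and 115 CPM (lowest, median, highest) in NFD-C and 72.4, 158 and 224 in HFD-C. All NFD-C mice lay below the HFD-C median, although the groups overlapped, and the log2 fold change was -0.84 (SE 0.26) with an unadjusted p of 0.0049 and an edgeR adjusted p of 0.9996. A pseudogene copy, Ndufa12-ps (also named Gm15920), which the selection left out, moved the other way. It had 62.0 to 78.9 CPM in NFD-C and 28.6 to 56.4 in HFD-C, with no overlap, a log2 fold change of 0.76 (SE 0.16, edgeR adjusted p = 0.795).

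The 2 sequences are nearly the same. Over 402 aligned bases they are 99.5% identical with 2 mismatches and an identical run of 278 bases, in the GENCODE M21 transcripts of GRCm38. The window of 61 bases below holds 1 of the 2 mismatches in capitals, positions 117 to 177 of the reading frame, and shows how few bases can separate reads of the gene from reads of the copy.
Ndufa12: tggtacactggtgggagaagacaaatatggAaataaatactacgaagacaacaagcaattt
Ndufa12-ps: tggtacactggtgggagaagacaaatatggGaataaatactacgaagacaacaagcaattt

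The copy's share of the counts of both ran from 8.85% to 49.0% over the 36 mice, and from 35.8% to 49.0% in NFD-C. With the counts of both summed, the log2 difference between NFD-C and HFD-C was -0.34 (SE 0.18, edgeR unadjusted p = 0.0785). The division of reads between them makes the value of Ndufa12 alone uncertain. Ndufb3, a single-pass membrane-arm subunit, had 51.7, 76.6 and 86.5 CPM (lowest, median, highest) in NFD-C and 71.71, 90.0 and 144 in HFD-C, a log2 fold change of -0.41 (SE 0.17). Ndufa8, on the intermembrane side, had 114, 127 and 147 CPM in NFD-C and 123, 147 and 282 in HFD-C, a log2 fold change of -0.38 (SE 0.17) that was -0.18 without HFD-C replicate 6 and -0.15 with the ribosomal-RNA-linked share as a covariate. Both overlapped between groups, with edgeR adjusted p of 0.9996.

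In edgeR's quasi-likelihood test over all 6 groups, 3 of 50 genes were at 0.05 or below before adjustment, where 12.2% of 12053 genes were, and none passed the adjusted threshold, which 1.45% of genes did. They were Ndufb1 (edgeR adjusted p = 0.20), Ndufa9 (0.217) and Ndufv1 (0.343). For Ndufb1 the adjusted p ran from 0.0163 to 0.667 over the alternative settings in edgeR or DESeq2, the highest with the ribosomal-RNA-linked share as a covariate. Ndufv1, the subunit that binds NADH and FMN, averaged 261 CPM in NFD-C and 310 in HFD-C, and in the runners, by rising distance, 341, 364, 367 and 340 CPM. Against HFD-C the log2 differences of the other core subunits named above ran, at the 4 running distances, from -0.09 (Ndufs1, HFD-50%) to 0.19 (Ndufs8, HFD-50%).

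The subunits shared their variation between mice of a group. Each mouse was summarised by the median, over the 37 subunits, of its log2 difference from the HFD-C mean. That median averaged -0.19 ± 0.14 (SD, n = 6) in NFD-C, -0.01 ± 0.30 in HFD-C and, in order of running distance, 0.03 ± 0.18, 0.07 ± 0.32, 0.04 ± 0.20 and -0.02 ± 0.28. Within HFD-C alone it ran from -0.27 to 0.51. After the group means were removed, a subunit correlated with the mean of the other subunits over the 36 mice at a median r of 0.886, with 26 of 37 at 0.8 or more, while the 8 assembly factors had a median r of 0.47, from 0.107 (Ndufaf6) to 0.786 (Ndufaf8).

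That within-group variation was compared with 7 other measures over the 36 mice and, for Ndufs1, with 4 more over 30 mice. Group means were removed, permutation tests used 100000 draws, and the 22 p-values of the 11 relations were adjusted together. The subunit median followed that of complexes II to V (Pearson's r = 0.97, Spearman's rho = 0.946, permutation p = 1e-05 for each, the smallest these draws can give, adjusted 0.00011). The value was 0.962 without the 2 most distant mice, 0.977 in the 26 mice of low ribosomal-RNA-linked share and 0.93 in the 10 of high share. It also followed the summed mitochondrially encoded complex I transcripts (r = 0.677, rho = 0.623, permutation p = 6e-05 and 0.00032, adjusted 0.000264 and 0.00117), at 0.58 without the 2 most distant mice, 0.76 in the 26 and 0.326 in the 10 mice.

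Fibre-type and length measures moved with it as well. Against Myh4, r was -0.505 and rho -0.539 (permutation p = 0.00233 and 0.00201, adjusted 0.00427 and 0.00402), at -0.596 without the 2 most distant mice, -0.511 in the 26 and -0.558 in the 10 mice. Against the summed slow-fibre markers, r was 0.486 and rho 0.578 (permutation p = 0.00153 and 0.00043, adjusted 0.00337 and 0.00135), at 0.658 without 2 mice and 0.731 in the 26 mice, but 0.0973 in the 10 mice. Against the short-to-long gene index, r was 0.735 and rho 0.752 (permutation p = 2e-05 for each, adjusted 0.00011), at 0.727 without 2 mice, 0.747 in the 26 and 0.685 in the 10 mice. Over the 36 mice neither Myh2, the fast 2A myosin (r = 0.217, rho = 0.209, permutation p = 0.23 and 0.264, adjusted 0.316 for r), nor the ribosomal-RNA-linked share passed the test (r = -0.169, rho = 0.053, permutation p = 0.483 and 0.783, adjusted 0.532 for r). Without the mice numbered 1, the r with Myh2 was 0.598 over 30 mice. Which of these measures the shared variation belongs to was not tested.

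**Figure D4:**
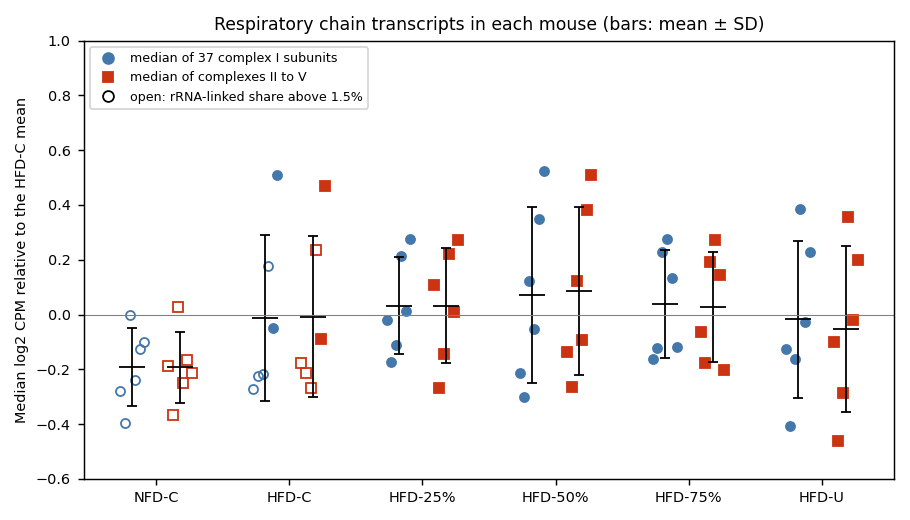
Median log2 difference from the HFD-C mean in each mouse (y axis), by group, for the 37 complex I subunits (circles) and for complexes II to V (squares), with bars for mean ± SD. Open symbols are libraries of high ribosomal-RNA-linked share; the 6 groups overlap, and the circles of HFD-C alone run from -0.27 to 0.51.

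Ndufs1, the iron-sulfur subunit of the N module, did not share this variation: its r with the mean of the other subunits was 0.0163, and Ndufa10 and Ndufa12 were next at 0.351 and 0.397. In each of the 6 groups the mouse numbered 1 had the highest Ndufs1 level, 374 to 483 CPM with a median of 418, while the other 30 mice had 140 to 329 CPM with a median of 277. No other of the 50 genes was highest in the mouse numbered 1 in 5 or more groups, and Ndufa13 and Ndufc1 were lowest there in 5 groups. These mice also differed in other measures. In each of the 6 groups the mouse numbered 1 had the highest Myh2, 3834 to 10843 CPM, and the highest summed regulators of respiratory genes, 353 to 491 CPM. It also had the lowest short-to-long gene index of each group, -0.53 to -0.21. The part of these measures in its Ndufs1 level was not tested. The labels do not say what the number marks. Over the 30 mice without that number, Ndufs1 correlated with the subunit median at r = 0.464 (rho = 0.508, permutation p = 0.0277 and 0.01, adjusted 0.0436 and 0.0169), at 0.413 without the 2 most distant mice, 0.494 in 22 mice of low share and 0.352 in 8 of high share. With Myh2 it gave r = 0.542 (rho = 0.583, permutation p = 0.00053 and 0.00126, adjusted 0.00146 and 0.00308), at 0.638, 0.629 and 0.341. With Myh4 r was -0.191 and with the short-to-long gene index -0.175, and neither relation passed the permutation test.

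Other genes of the pathway were read from lists of the mitochondrial complex I genes, assembly factors of other names, complexes II to V and regulators. Over all 6 groups the count at 0.05 or below before adjustment in edgeR was 2 of 7, 0 of 9, 1 of 44 and 1 of 11 tested genes, against 12.2% of 12053 genes. In the mitochondrial list these were ND3 and ND4L (unadjusted p of 0.0124 and 0.0129 in edgeR). The assembly factors of other names had median log2 fold changes between -0.15 and 0.05 over the 6 pairwise comparisons, and Tmem126b and Ecsit had their smallest unadjusted p over all groups (0.122 and 0.149 in edgeR). In complexes II to V it was Sdhb, the iron-sulfur subunit of complex II (0.0279), followed by Atp5g1, a subunit of the ATP synthase ring (0.112). Among regulators of respiratory genes, Ppargc1b, a coactivator, averaged 12.9 CPM in HFD-C, 6.57 in HFD-25%, 5.37 in HFD-50% and 6.06 in HFD-75%, log2 differences of -0.99, -1.27 and -1.10 with an unadjusted p over all groups of 0.0339, and Gabpb1 followed at 0.0776. Ppargc1a, its relative, had group means of 34.1 to 36.6 CPM and an unadjusted p over all groups of 0.9965. The lowest log2 difference from HFD-C of any of the 11 regulators was -0.77 in HFD-U and -0.65 in the sedentary NFD-C mice. None of these genes passed the adjusted threshold in edgeR.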

How the data were processed

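Poly(A) RNA of the gastrocnemius of 36 mice was sequenced in paired-end mode, and the authors deposited a table of raw gene counts, made per their methods and the submitters' processing notes with HISAT2 2.0.5 and featureCounts 1.5.0-p3. The labels name mm10, but the chromosome accessions in the table are those of GRCm39. The strand setting is not given in the sources used here. The table also holds gene names, positions and lengths.

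Counts were tested with edgeR 4.0.16 in R 4.3.3 (TMM, quasi-likelihood F-test, two-sided), leaving out genes whose counts averaged below 25 in a fit, with Benjamini-Hochberg adjustment over all genes tested. Pairwise fits held 12 libraries, the distance fit the 30 high-fat mice and the test over groups all 36. Mice with the same replicate number in HFD-U and HFD-C deviated from their group means together in all 6 pairs (r of 0.122 to 0.515 over genes), so that comparison was also fitted with the number as a block. The labels do not tie the number to a litter, batch or day. The tests were tried first on simulated data. Alternatives used DESeq2 1.42.0, other scalings and subsets. Depth was 13060090 to 27981702 counts per mouse, and replicates were separate animals.

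Genes named with values were the 3 with the smallest p in each test, the 3 highest and lowest by FPKM, the core subunits, the copies, both genes outside complex I, and from each other list the 2 with the smallest p over all groups. The values of 1 gene are not reported here by themselves; it is included in counts and medians. Members and lists were chosen with earlier results of these data known. Sequences came from RefSeq promoters (GRCm38.p6) and GENCODE M21 transcripts, aligned with Biopython 1.88.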

Additional observations from a re-analysis of the deposited data

Results flagged for a closer look

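In 5 of the 144 gene-by-group sets of 6 mice examined, 1 mouse stood apart from the other 5 by Dixon's criterion. About 1 in 20 sets would be marked by chance. Ndufa8 was 282.4 CPM in HFD-C replicate 6, where the other mice of the group had 123 to 173. Ndufaf6 was 13.95 CPM in HFD-U replicate 5, against 21.1 to 24.7. Ndufs1 was 417.6 CPM in HFD-U replicate 1, against 258 to 304, and 482.6 CPM in HFD-75% replicate 1, against 249 to 297. Ndufs7 was 440.8 CPM in HFD-25% replicate 6, against 291 to 333.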

How the results depend on the processing

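Values below are counts of the 50 genes that reached 0.05 before adjustment (edgeR unless DESeq2 is named), where they moved by over 1.5 times from the reported count. In the reported fits the share of all genes at that limit was 4.12% to 12.4%. The share under each alternative is not given, so no count in this section is read as a result about the 50 genes. In HFD-25% the count of 1 became 2 with DESeq2, without a minimum count, with DESeq2 size factors and with library sizes without mitochondrial and rRNA-linked features, 5 with the rRNA-linked share in the model, 4 within low-share libraries, 3 without the mice numbered 1 and 3 with the short-to-long gene index as a covariate. In HFD-50% the count of 0 became 1 with DESeq2, 3 with the share as a covariate, 2 within low-share libraries and 1 with the length index. In HFD-75% the count of 3 became 1 with the share as a covariate and 0 without the mice numbered 1. In HFD-U the count of 1 became 4 with the share as a covariate, within low-share libraries and with the length index. In NFD-C the count of 3 became 0 with the share as a covariate and 1 within high-share libraries. In HFD-50% against HFD-U the count of 1 became 2 with the length index, as did the distance count of 1, which was 2 within low-share libraries too. Over all groups the count of 3 became 5 without a minimum count, 1 with the share as a covariate, 1 within low-share libraries and 6 with the length index. The low-share libraries held no NFD-C mouse and 2 HFD-C mice, so that count is not over all 6 groups. The cause of these moves was not tested.

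Leaving out a replicate gave counts of 0 to 4 in HFD-25%, 0 to 3 in HFD-50%, 0 to 7 in HFD-75%, 1 to 3 in HFD-U, 1 to 8 in NFD-C and 0 to 2 in HFD-50% against HFD-U. The near-zero log2 difference of Ndufb1 between NFD-C and HFD-C ran from -0.0652 to 0.0999 when a replicate was left out. The log2 fold change of Ndufb1 in HFD-U ran from -0.81 to -0.61.

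With the mouse number as a replicate block, the count became 2 in HFD-U, where 1 also passed the adjusted threshold, 5 in NFD-C, 2 in HFD-50% against HFD-U, 2 for distance and 7 over all groups. The numbers paired the samples in all 6 pairs only between HFD-U and HFD-C. Elsewhere 1 to 5 of 6 pairs had r over 0.1, and mice numbered 1 deviated together across all groups (mean r of 0.455). Under the block Ndufb1 had an adjusted p of 0.0492 for distance and 0.0256 over all groups. With the length index these were 0.0374 and 0.0163, and Ndufa1 had 0.04 over all groups. With the share as a covariate they were 0.429 and 0.667 (0.0735 and 0.255 before adjustment), and the gene counted for distance was then Ndufaf7. Within low-share libraries they were 0.429 and 0.601, the second without NFD-C, which had no such library. The length index and the sum of Ndufa12 with its copy were chosen after seeing the data. Of 237 values of single genes under alternatives (edgeR or DESeq2), 158 kept their direction and their side of an unadjusted p of 0.05. Of the others, 72 were no longer at 0.05 or below before adjustment, 1 became so and 6 reversed. Of 131 median log2 fold changes of the 50 genes under alternatives, 130 moved by less than the spread between mice, and 28 had another sign than the reported median (against HFD-C 9, 3, 9 and 6 by rising distance, and 1 in HFD-50% against HFD-U).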
